A study of Macaca mulatta with 11 samples.

Results

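In 324 of 140730 genomic regions, the DNA methylation levels of the highest and the lowest of 11 rhesus macaques (Macaca mulatta) differed by more than 50 percentage points. Methylation was measured by capture bisulfite sequencing in area 46 of the prefrontal cortex, in tissue taken before any animal had drunk alcohol. Cohort 10 gave 2 animals, aged 5.02 and 5.08, and cohort 14 gave 9 animals, aged 5.18 to 5.44, so that age cannot be told apart from cohort. Each animal is labelled with an ethanol value for 6 months, called intake here, which ran from 1.69 to 4.31. No unit is given in the labels for either number. Animals are numbered within each cohort. The capture probes were designed on the human genome, so only macaque DNA that these probes caught was read.

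A region is a run of measured CpG positions at most 200 bp apart, no longer than 1000 bp and with at least 5 positions. Its level in an animal is the percentage of its reads that were methylated, summed over its positions. A read that covers several positions is counted at each of them, here and in all read numbers of regions and libraries. The range of a region is the highest minus the lowest of the 11 levels, and regions with a range over 50 points are called wide-range regions here. The regions were chosen by these levels, so levels and ranges are given as a description, with no test. Coordinates are those of the deposited files. Their genome build is not given in the sources used here, so no gene is named and no sequence is shown.

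In mammalian DNA, methyl groups sit mainly on the cytosine of CpG dinucleotides. Most CpGs are methylated, while the dense clusters known as CpG islands are usually free of methylation, and the pattern is copied when cells divide. Regions that differ between individuals are known in several mammals, and some of them follow a nearby sequence variant while others are set early in development. An autosomal region is present on a pair of chromosome copies, and a region in which every copy was either fully methylated or fully unmethylated in all cells would read near 0, 50 or 100%. Neither genotype nor allele was measured here, and brain tissue holds several cell types.

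The wide-range regions were short and thinly read. Their median was 7 CpGs over 158 bp, against 12 CpGs over 344 bp for all regions. A position in them was read a median of 68.8 times per animal, against 179 times for all regions. Of the 4185 regions below 50 reads per position, 104 (2.49%) passed the threshold, and of the 50084 regions from 200 to 400 reads, 34 (0.0679%) did. By size, 0.61% of regions with 5 CpGs passed, and 0.0566% of those with 20 to 39 CpGs. Both shares were higher again at the far end. Above 400 reads 16 regions (0.158%) passed, 12 of which lie in a single stretch of chromosome 20, and with 40 or more CpGs 21 passed (0.0988%), 13 of which lie there. The part of read depth in the ranges was not tested.

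**Figure D1:**
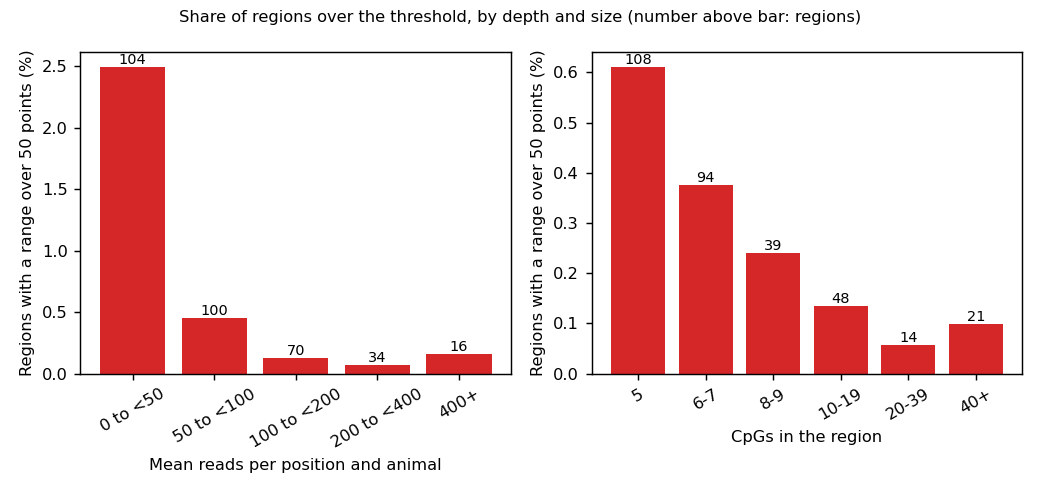
Percentage of all regions with a range over 50 points (y axis), by mean reads per position and animal (left) and by number of CpGs (right), with the number of such regions above each bar. The share is highest in the thinnest class, at 2.49%, and in the smallest class, at 0.61%.

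Counting intervals were narrower than the ranges. The smallest summed read count behind any level was 61, and the number of separate reads can be lower. The widest 95% Wilson interval of an animal had a median of 10.97 points over the 324 regions and reached 23.1 points, while the ranges had a median of 55.1 points and reached 86.5 points. Such intervals cover counting error only and take every count as independent. Reads copied from 1 molecule by PCR are not, nor are counts of 1 read at several CpGs. The intervals can therefore be too narrow, by an amount that was not measured.

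Pooled over animals, wide-range regions were of intermediate methylation. The pooled level lay between 20% and 80% in 310 of the 324 (95.7%), and in 34.9% of all regions. It lay under 20% in 4 and over 80% in 10. The threshold itself keeps out regions in which all animals are near either end of the scale. Just inside it were ranges of 50.01 points on chromosome 1 (80809368 to 80809670), 50.01 points on chromosome 10 (6594675 to 6594968) and 50.03 points on chromosome 10 (4794381 to 4794576). Just outside were 49.99 points on chromosome 11 (112333131 to 112333298), 49.96 points on chromosome 3 (149286863 to 149287144) and 49.96 points on chromosome 9 (65792831 to 65793128). No gap in the ranges separates members from other regions.

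**Figure D2:**
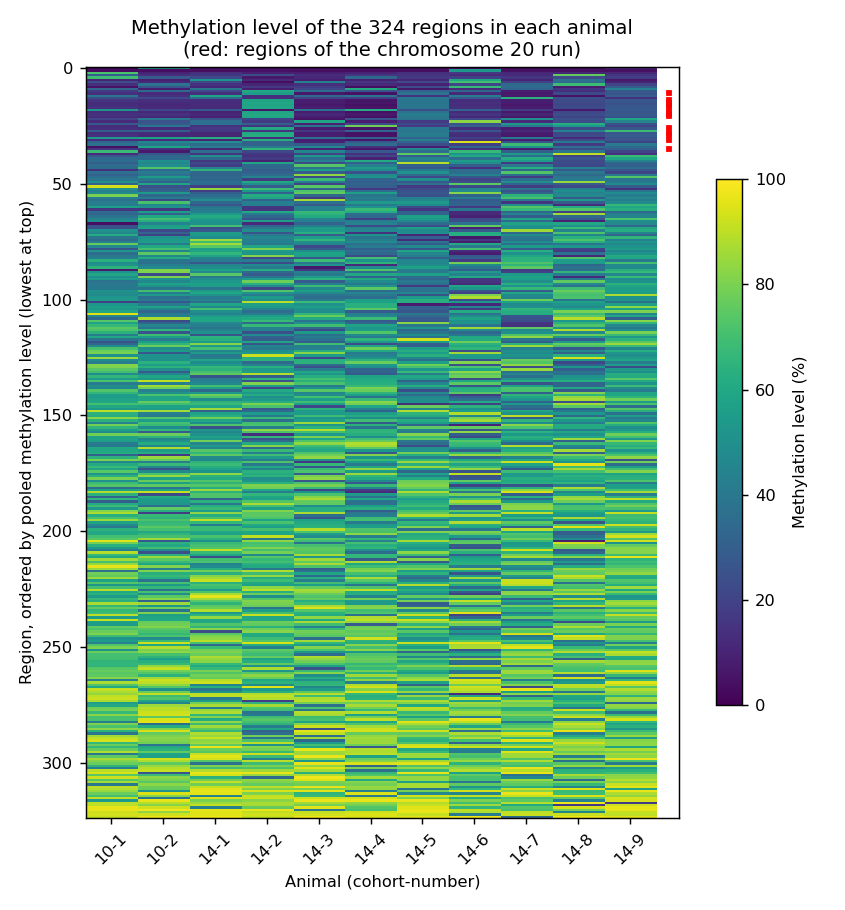
Methylation level in percent (colour) of the 324 wide-range regions (rows, ordered by pooled level) in the 11 animals (columns, by cohort and number), with red marks at the regions of the chromosome 20 stretch. Intermediate levels fill most of the map, and high and low cells occur in all 11 animals.

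The levels did not gather at 0, 50 and 100%. Windows of 15 points around these 3 steps cover 60% of the scale, and 58.1% ± 2.45 (SD, n = 11 animals) of the levels fell in them. The window at 50 runs from 35% to 65%, while those at 0 and 100 cover only 15 points each. Near 0 lay 6.06% of the levels (3.77% without the chromosome 20 stretch), near 50 lay 40.5% and near 100 lay 11.6%. Windows of 10 points cover 40% of the scale and held 35.1% of the levels. In bins of 10 points the levels formed a single broad peak, with 16.3% of them between 60% and 70%. The 5619 regions with a range of 30 to 50 points were much the same in this respect, with 56.6% of levels within 15 points of a step and their largest bin, 19.8%, also between 60% and 70%. Over all regions 68.4% of levels lay in the windows, 21.0% near 0 and 33.2% near 100.

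Larger and more deeply read regions had no sharp steps either. At least 10 CpGs and at least 100 reads per position were found in 45 wide-range regions, a limit set after the values were seen. Of the 32 that lie outside the chromosome 20 stretch, 63.1% ± 9.36 (SD, n = 11 animals) of the levels fell in the windows, with 17.3% near 0, 40.1% near 50 and 5.68% near 100. Of their 61 levels near 0, 37 came from 4 regions, and the other 28 regions held 24 of 308 (7.79%). Their largest bin, 16.8%, was at 50% to 60%. With the 13 regions of the stretch, which share their animals' order, the share was 67.5% ± 14.4 (SD, n = 11 animals).

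**Figure D3:**
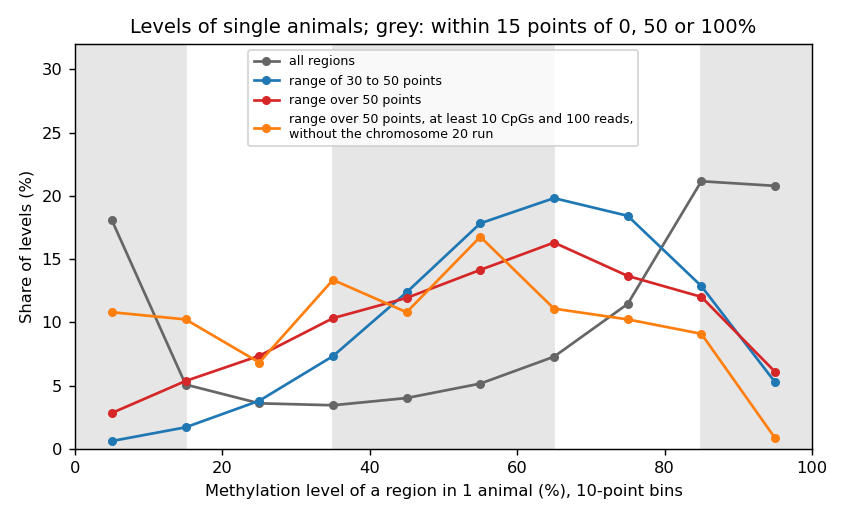
Percentage of single-animal levels (y axis) in 10-point bins of methylation level (x axis) for all regions, regions with a range of 30 to 50 points, wide-range regions and the 32 of these with at least 10 CpGs and 100 reads per position outside the chromosome 20 stretch, with grey bands at the windows around 0, 50 and 100%. The wide-range regions have a single broad peak at 60% to 70%, with 16.3% of levels.

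The window at 50, which is the widest, held more animals than those at 0 and 100. A wide-range region had a median of 4 animals near 50, 1 near 100 and 0 near 0. No animal was near 0 in 250 regions, near 100 in 154 and near 50 in 9. One step was occupied in 97 regions, a pair of steps in 219 and all 3 in 8. At least 9 of the 11 animals lay in a window in 59 regions, and all 11 did in 8. Of the 5619 regions with a range of 30 to 50 points, 1339 and 33 did so. Of all 140730 regions, 78996 and 59006 did so. In 58962 of these 59006 all animals were at the same step, which is not possible with a range over 50 points.

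A single region had all 11 animals in windows and an animal at each of the 3 steps. It holds 9 CpGs on chromosome 17 (93879453 to 93879695) at 79.7 reads per position. In cohort 10 the levels were 88.2% and 90.8%. In cohort 14 they were, from animal 1 to animal 9, 64.3%, 42.8%, 51.5%, 12.3%, 87.7%, 39.8%, 94.0%, 46.1% and 86.2%. Thus 1 animal was low, 5 were intermediate and 5 were high, and all 9 CpGs moved together in the sense defined below. The widest Wilson interval was 8.75 points.

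The other 7 regions with all animals in windows used a pair of steps, and in 5 of them 1 animal stood apart from the other 10. They are named after their values were seen. On chromosome 1 (8925697 to 8925868, 5 CpGs) animal 6 of cohort 14 was at 41.1% and the other 10 between 90.4% and 95.1%. Also on chromosome 1 (209730913 to 209731115, 9 CpGs) animal 2 of cohort 14 was at 91.9% and the others between 40.4% and 64.0%. These are the patterns of 1 animal against 10, a high group with a single intermediate animal and the reverse. In both regions the single animal also had the fewest reads of the 11, with 504 and 480. The part of read depth in these levels was not tested.

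On chromosome 14 (9673668 to 9673795, 6 CpGs) animal 6 of cohort 14 was at 12.5% and the others between 37.0% and 64.4%. On chromosome 2 (94991556 to 94991733, 9 CpGs) a pair of animals was low, with 7.80% in animal 5 and 11.3% in animal 6 of cohort 14, and the other 9 lay between 42.1% and 63.6%. On chromosome 10 (92256166 to 92256317, 12 CpGs) animals 1, 6 and 8 of cohort 14 were at 51.7%, 60.1% and 37.8%, and the other 8 between 6.52% and 11.8%. The last of these had 3 animals apart from 8 with no overlap. Its fewest reads, 767, were in animal 9, which was not among the 3. In the chromosome 2 region animal 6 had the fewest reads of the 11, 652, and animal 5 had 1719. The remaining pair of regions, on chromosomes 4 and 16, is described with the larger regions below.

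In most wide-range regions, as in most regions at large, the largest gap in the levels set 1 animal apart. When the 11 levels were sorted, the largest gap between neighbours left 1 animal on one side and 10 on the other in 201 of 324 regions (62.0%). In 128 of these the single animal was the lowest and in 73 the highest. The share was 62.7% in regions with a range of 30 to 50 points and 51.0% in all regions, so the wide-range regions differed little from the next class. The gap was a median of 19.3 points, exceeded 30 points in 37 regions and 40 points in 11. Splits with 4 to 7 animals on the low side made up 10, 3, 8 and 8 regions.

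Within a region many CpGs moved together. A CpG was counted as moving with its region where its level and the pooled level of the other CpGs had a Pearson r over 0.8 across the 11 animals. The median wide-range region had 60% of its CpGs moving together, with 90 regions at 80% or more, 19 at 100% and 35 at 0%. In regions with a range of 30 to 50 points the median was 20%. A range over 50 points in the pooled level is reached more easily where CpGs move together, so the rule itself favours high shares. CpGs close together can also lie on the same reads, so these shares are a description.

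The same held between the ends of a region. When the CpGs were divided by coordinate into a lower and an upper group, the animals' levels in the groups had a median r of 0.85. The same animal was highest in both groups in 184 regions (56.8%) and lowest in both in 210 (64.8%), against 41.0% and 49.5% in regions with a range of 30 to 50 points. The rule favours high values here as well. Within the wide-range regions, these values were higher in larger regions. With at least 10 CpGs, 83 regions had a median of 78.7% of CpGs moving together and an r of 0.94 between groups, while the 241 with 5 to 9 CpGs had a median of 44.4% and an r of 0.81.

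The 3 regions named for the lowest share were read more deeply than the median of 68.8. On chromosome 1, 0% of CpGs moved together in the regions 90588388 to 90588734 (5 CpGs, 222 reads per position), 104700791 to 104701018 (5 CpGs, 238 reads) and 127725928 to 127726102 (8 CpGs, 81.4 reads). In the region from 90588388 the levels ran from 25% in animal 2 of cohort 14 to 90.4% in animal 2 of cohort 10, with a median of 61.4%, but 61.8% of its reads came from 1 position and 40% of its CpGs had a range over 50 points. The r between its lower and upper CpGs was 0.44. No CpG of this region followed the others across animals. These are 3 of the 35 regions tied at 0%.

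The largest range, 86.5 points, was in a region of 5 CpGs on chromosome 12 (129638284 to 129638432). In cohort 10 the levels were 94.9% and 27.5%. In cohort 14 they were, from animal 1 to animal 9, 49.7%, 82.6%, 68.5%, 44.3%, 86.1%, 72.9%, 67.0%, 8.47% and 92.4%. The animals were spread over the scale without clear groups. A neighbouring wide-range region 437 bp away (129637329 to 129637847, 22 CpGs) had a range of 64.6 points, and the levels of the pair had an r of 0.92 across animals.

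Among the next largest ranges, 3 came mainly from 1 animal. On chromosome 10 (29018334 to 29018433, 9 CpGs) animal 6 of cohort 14 was at 94.5% and the other 10 between 9.28% and 49.0%. On chromosome 4 (109641104 to 109641152, 5 CpGs) animal 9 of cohort 14 was at 17.1% and the others between 70.1% and 97.4%, at 30 reads per position. On chromosome 7 (166977486 to 166977644, 9 CpGs) animal 6 of cohort 14 was at 12.8% and animal 5 at 46.3%, and the others lay between 66.9% and 91.0%. Animal 6 had the fewest reads of the 11 on chromosome 10, 163, but not on chromosome 7. On chromosome 4 animal 9 had 82 reads, where the fewest of the 11 were 69.

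Larger regions with deep reads show the range most precisely. On chromosome 15 (47327182 to 47327513) 25 CpGs were read 358 times per position and animal, and 96.0% of them moved together. In cohort 10 the levels were 13.1% and 26.7%. In cohort 14 they were 14.9%, 16.2%, 20%, 14.1%, 74.7%, 51.9%, 54.3%, 90.9% and 14.2%. So 7 animals lay at 26.7% or below, animals 6 and 7 near 50%, and animals 5 and 8 well above, with no interval wider than 2.30 points. The range was 77.8 points.

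On chromosome 4 a block, singled out after its values were seen, stood out in 1 animal. In the wide-range region from 55921540 to 55922530, with 127 CpGs and 318 reads per position, animal 6 of cohort 14 was at 53.1%. The other 10 animals lay between 3.08% and 4.96%, and 96.9% of CpGs moved together. The region had at least 29848 reads in each animal, summed over its CpGs, and the fewest were in animal 6. Its widest Wilson interval was 1.13 points.

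The difference went beyond that region. The 3 neighbouring regions did not pass the threshold, with ranges of 39.7, 30.4 and 39.6 points. Together the 4 regions hold 398 positions over 3930 bp, and animal 6 of cohort 14 was between 34.6% and 58.3% in each. The other 10 animals lay between 18.5% and 27.4% in the region before it, and between 4.14% and 7.42% and between 8.44% and 13.0% in the regions after it. Animal 6 did not overlap with the others in any of the 4.

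The cohort 10 animals each had such a region too, named after its values were seen. On chromosome 13 (97174588 to 97174999, 35 CpGs, 624 reads per position) animal 1 of cohort 10 was at 71.8% and the other 10 between 8.44% and 16.5%. On chromosome 16 (4972464 to 4972831, 26 CpGs, 114 reads) animal 2 of cohort 10 was at 54.2%, animal 9 of cohort 14 at 12.9%, and the other 9 between 1.91% and 3.96%. In both regions over 80% of CpGs moved together, at 94.3% and 84.6%.

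Low levels in a few animals were seen as well, in regions also named after their values were seen. On chromosome 13 (34402392 to 34403338, 54 CpGs, 219 reads) animal 3 of cohort 14 was at 36.4%. Animal 1 of cohort 10 and animals 5 and 8 of cohort 14 were at 59.8%, 60.9% and 60%, and the other 7 animals lay between 80.8% and 87.3%. The next region, 16 bp away, had a range of 26.6 points and an r of 0.91 with it. On chromosome 2 (95425133 to 95425960, 51 CpGs, 117 reads) animal 6 of cohort 14 was at 9.52%, animal 5 at 31.7% and the other 9 between 52.0% and 81.7%.

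**Figure D4:**
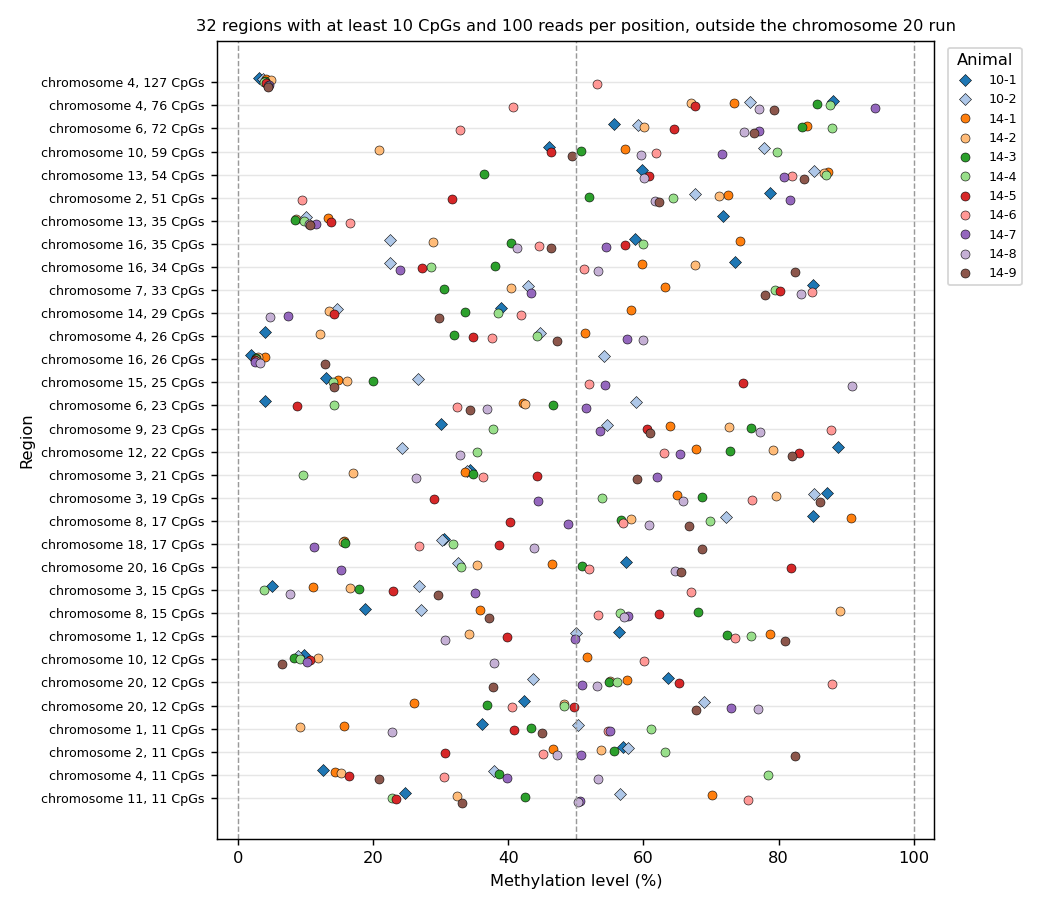
Methylation level in percent (x axis) of each animal (diamonds for cohort 10, circles for cohort 14, coloured by animal) in the 32 wide-range regions with at least 10 CpGs and 100 reads per position outside the chromosome 20 stretch (one per line, by number of CpGs). Some regions show 1 animal far from 10 others, as on chromosome 4 with 53.1% against 3.08% to 4.96%, and others a spread over the scale.

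The longest run of wide-range regions lay on chromosome 20 (29807363 to 29821356). It held 13 of them over 13994 bp, with 3109 positions, of which 1647 pairs were 1 bp apart, as both strands of a CpG would be. Summed over the run, the cohort 10 animals were at 13.6% and 12.1%. In cohort 14 the levels were, from animal 1 to animal 9, 10.6%, 59.8%, 7.72%, 5.15%, 40.1%, 12.8%, 7.32%, 22.0% and 26.7%. Animals 2 and 5 of cohort 14 were thus highest and animal 4 lowest, and this order was nearly fixed along the run. The lowest r between any pair of the 13 regions was 0.99, and the SD of an animal's level over them was 0.670 to 2.70 points.

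Read depth in the run stood apart. Its positions had a mean of 2237 reads per animal, and its regions were read 2.04 to 29.5 times as deeply as the median region. The run took 0.365% to 2.55% of a library's reads, counted at each CpG position, so that dense CpGs raise this share. Animals 2 and 5 of cohort 14, the highest in level, had 2.55% and 1.49%, and animal 2 of cohort 10 had 1.51% at a level of 12.1%. Over all 11 animals read share and level rose together, with a Pearson r of 0.80 for the run as a whole and 0.53 to 0.91 in its 13 regions, given as a description. The part of read depth in the levels was not tested. Whether this sequence is present in more copies than a chromosome pair gives was not tested either, so the levels of the run cannot be read as steps of a pair of copies.

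The edges of the run were sharp on one side only. The region before it (29805388 to 29806258) had a range of 9.47 points. One region inside the run (29808369 to 29809351) missed the threshold at 49.1 points, and the first region after it, at 29821365, had a range of 47.1 points. A region further on (29837503 to 29838496, 131 CpGs) had a range of 32.9 points and an r of 0.96 with the run. Because the 13 regions behave as a single measurement, the main counts below are also given without them.

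**Figure D5:**
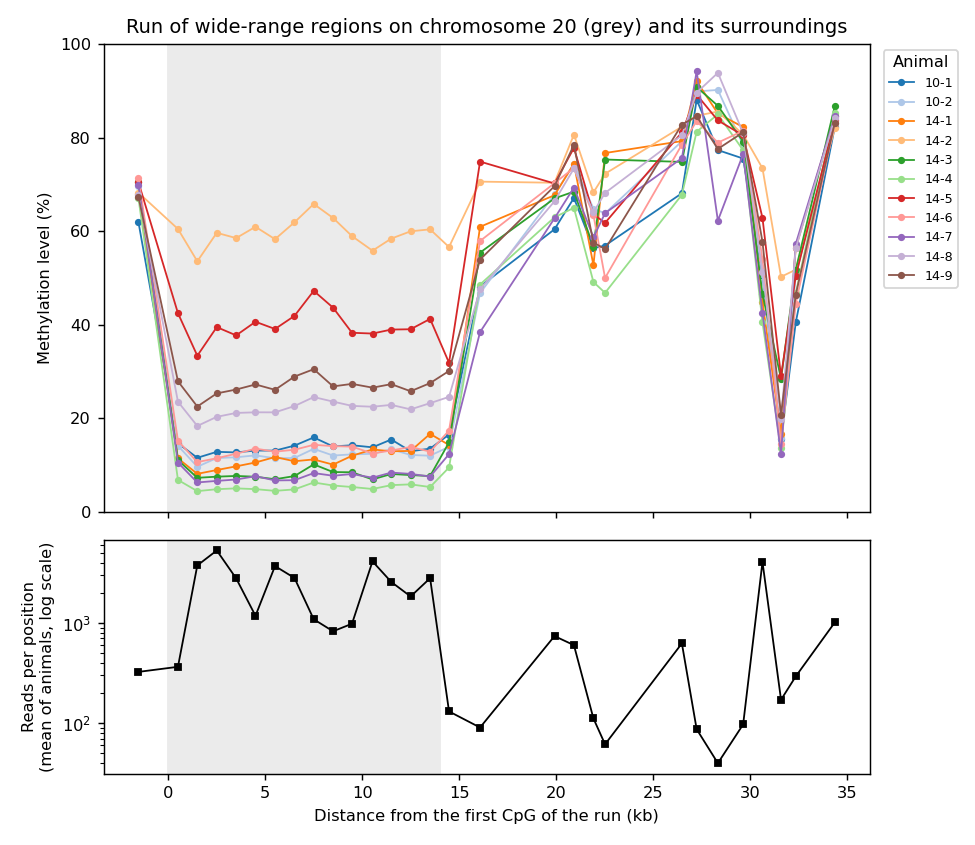
Methylation level in percent of each of the 11 animals (top) and mean reads per position on a log scale (bottom) in the regions of the chromosome 20 run (grey) and around it, by distance in kb from the start of the run (x axis). Over the run the animals stay in nearly the same order, with animal 2 of cohort 14 highest at 59.8% over the whole run.

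Elsewhere wide-range regions rarely lay side by side. Joined at up to 2000 bp, the 324 formed 309 separate loci, with only 3 other runs, each of a pair. On chromosome 1 (101551836 to 101552063 and 101552367 to 101552523) animal 4 of cohort 14 was lowest in both, at 28.5% and 33.2%, with the other 10 at 55.3% or more. Animal 4 also had the fewest reads in both, 782 and 214. On chromosome 4 (3806187 to 3806942 and 3807231 to 3808224) animal 6 of cohort 14 was lowest, at 37.1% and 40.7%, and animal 7 highest, at 93.5% and 94.3%. Animal 6 did not have the fewest reads in either of these regions. The third pair is the one on chromosome 12 given above. There animal 8 of cohort 14 was lowest in the smaller region, at 8.47%, and animal 2 of cohort 10 in the larger one, at 24.2%. In the pairs on chromosomes 1 and 4 the same animal was lowest in both regions.

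Neighbouring regions followed the wide-range regions weakly. Without the run, the median r across animals with regions within 1000 bp was 0.26 over 152 pairs, and 14.5% of these had an r over 0.8. It was 0.11 at 1000 to 2000 bp and 0.055 at 2000 to 5000 bp. Regions with a range of 30 to 50 points had a median of 0.18 within 1000 bp. The values share libraries and are given as a description.

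CpGs were denser in wide-range regions than in regions at large. The median was 5.32 CpGs per 100 bp, or 5.20 without the run, against 3.76 over all regions and 3.62 in regions with a range of 30 to 50 points. The share of regions that passed the threshold rose from 0.114% below 2 CpGs per 100 bp to 0.883% at 10 or more, where 41 regions passed, 28 of them outside the run. Wide-range regions were also shorter, and a region of at least 5 CpGs that is short is dense by construction.

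All 20 chromosomes measured held wide-range regions. There were 1.09 per 1000 regions on chromosome 10, the lowest value, and 4.18 on chromosome 20, or 2.24 there without the run. The next highest were chromosomes 18 and 16, with 3.39 and 3.29. Within 2 Mb of the outermost measured position of a chromosome lay 54 of the 324 (16.7%), or 17.4% without the run, against 11.9% of all regions and 14.9% of regions with a range of 30 to 50 points. Of the 45 larger and deeper regions, 3 lay there, all of them among the 32 outside the run.

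Each animal was an extreme in some regions. Animal 6 of cohort 14 was lowest in 66, the most of any animal, and highest in 37. Animal 8 was highest in 48 and lowest in 37. Animal 9 was highest in 38 and lowest in 11, and animal 1 of cohort 10 was highest in 19 and lowest in 17. Animal 6 was also the one most often alone below the largest gap, in 41 regions, against 3 to 18 for the others. Outside the chromosome 20 run animal 6 was also most often alone above it, in 11 regions, against 2 to 9 for the others. Animal 2 was alone above it in 18 regions, 13 of them in the run.

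The library of animal 6 was not the thinnest. It had a median of 63.0 reads per position in the wide-range regions, within the 53.5 to 102.5 of all libraries, and the animals of cohort 10 were the lowest at 53.5 and 55.5. Its levels lay a median of 16.0 points from the median of the other animals, against 8.36 to 13.9 points for the rest. Over all regions, the median difference between animal 6 and another animal was 2.52 to 3.25 points, against 2.14 to 2.83 between other animals. Without animal 6, 242 regions had a range over 50 points. Without animals 3, 6, 7 and 8 of cohort 14, which had been seen to scatter more than the others in an earlier pass over these data, 127 had, with 7 animals left. The part of these libraries in the ranges was not tested beyond these counts.

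In wide-range regions an animal's share of reads was loosely related to its level. The r across animals between the share of the library's reads in a region and the level had a median of 0.12, against 0.00 over all regions, and was over 0.5 in 19.1% of wide-range regions and in 7.32% of all. Without the run the median was 0.10 and the share over 0.5 was 15.8%.

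No wide-range region was related to intake after correction. Intake was not used to choose the regions, and each region was fitted by quasi-binomial logistic regression with cohort as a covariate and the dispersion moderated with limma. Of the 119749 regions tested, 0 passed an adjusted p of 0.05, and so did 0 of the 324. At an unadjusted p under 0.05 there were 16 of 324 (4.94%), against 2.92% of all regions tested. In 13 of these methylation was higher with higher intake (4.01%, against 1.82%), and in 3 lower (0.926%, against 1.1%). By limma on logit methylation, 0 passed and 21 were under 0.05 unadjusted, against 3.38% of all regions by that fit. None of the 16 lies in the chromosome 20 run.

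The regions with the smallest p for intake sloped upwards. Slopes here are from least squares on the levels, with cohort as a covariate. On chromosome 7 (77677788 to 77677957, 5 CpGs) the slope was 18.0 ± 4.69 points per unit of intake (SE, n = 11 animals). The adjusted p, from the separate quasi-binomial fit with limma, was 0.99998. Levels were 43.7% in the animal of lowest intake and 95.2% in that of highest intake, and the others lay between 54.0% and 92.9%. On chromosome 3 (165079803 to 165080029, 21 CpGs) the slope was 15.7 ± 4.87, with 9.66% and 59.1% in these animals and 17.1% to 62.0% in the others. On chromosome 12 (120028611 to 120028745, 7 CpGs) it was 19.3 ± 4.59, with 21.3% and 68.1%, and 14.5% to 60.5% in the others. None of the 3 passed correction. In the order given, the r across animals between read share and level was -0.81, 0.34 and -0.33 in them. The part of read depth in these levels was not tested.

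Cohorts did not differ in any wide-range region after correction either. With the same quasi-binomial fit and limma, 0 of 324 passed, and 17 (5.25%) were at an unadjusted p under 0.05, against 2.47% of all regions tested. Of these 5 were higher and 12 lower in cohort 14, against 1.69% and 0.776% of all regions tested in these directions. By limma on logit methylation, 0 passed and 24 were under 0.05 unadjusted, against 3.67% of all regions by that fit. None of the 17 lies in the run. With 2 animals in cohort 10, a region in which either of them stands apart counts towards these numbers.

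The smallest p was on chromosome 2 (68786925 to 68787123, 10 CpGs, 57.3 reads). Levels were 31.0% and 16.4% in cohort 10. In cohort 14 they lay between 62.1% and 84.4%, with no overlap. The difference was 52.9 ± 5.92 points (SE, adjusted for intake), by least squares on the levels as for the other differences here. The adjusted p was 0.645 in the separate quasi-binomial fit with limma. The next was on chromosome 9 (49467387 to 49467579, 7 CpGs), with 40.4% and 58.1% in cohort 10, 73.0% to 92.3% in cohort 14, a difference of 37.1 ± 5.59 and an adjusted p of 0.772 in the quasi-binomial fit with limma. The third was the chromosome 16 region from 4972464, where animal 2 of cohort 10 was at 54.2% and animal 1 at 1.91%, so that the difference of -26.2 ± 9.45 points rests on 1 animal. In it, as in the chromosome 13 region from 97174588, the cohort 10 animals themselves lay apart. The r across animals between read share and level was -0.67, -0.68 and -0.35 in the regions on chromosomes 2, 9 and 16. The part of read depth in these levels was not tested.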

How the data were processed

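Methylation was measured by capture bisulfite sequencing in 11 macaque prefrontal cortex samples, 2 of cohort 10 and 9 of cohort 14. The authors deposited methylated and total read counts per CpG position, not normalized. The submitters' processing notes name FastQC and Bismark. Neither a version nor a genome build is given in the sources used here. The 5 columns that matched no labelled library were not used. The lowest methylated and unmethylated counts were both 1 and the lowest total was 12, so a coverage minimum of 10 removed nothing. In an alternative, methylated counts were lowered by 1 and totals by 2.

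Positions at most 200 bp apart were joined, split every 1000 bp and kept with at least 5 positions. A region's level in an animal was its summed methylated reads over its summed total reads. Library totals, which sum the total counts over all measured CpG positions, ran from 479979855 to 934657900. They are not numbers of separate reads. Intervals are 95% Wilson intervals over reads, which cover counting error only, since PCR copies are not independent molecules.

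Regions pooled at 5% to 95% were fitted by quasi-binomial logistic regression on the ethanol value and cohort. The dispersion was moderated with limma 3.58.1 in R 4.3.3, and two-sided p-values were adjusted by Benjamini-Hochberg over all 119749 regions at 0.05. The fit was tested on simulated data. Other work used matplotlib 3.10.9, pandas 2.3.3, scipy 1.17.1, numpy 2.4.6 and Python 3.11.15. Alternatives varied region building, level, depth, animals, covariates and model.

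The members, lists and tests were chosen with earlier results of these data known. Regions were named by a rule: the largest range, most CpGs, all animals near 3 steps, 1 animal apart, longest runs, smallest p for intake and for cohort, values next to the threshold and lowest share of CpGs moving together. Other regions named were chosen after their values were seen, as stated beside them.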

Additional observations from a re-analysis of the deposited data

Results flagged for a closer look

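In 6 of the 36 sets of cohort 14 values tested, 1 of the 9 animals lay far from the other 8 by Dixon's criterion. The sets were the levels of 35 named regions and the library totals, and all 6 were sets of levels. The 13 regions of the chromosome 20 run, which behave as a single measurement, were among the 35 and gave 0. Chance gives about 1 in 20 for sets not chosen for their spread. These regions were chosen for it, so the count of 6 is a description. On chromosome 10 (29018334 to 29018433) animal 6 was at 94.5% and the nearest other at 49.0%. On chromosome 4 (109641104 to 109641152) animal 9 was at 17.1% and the nearest other at 70.1%. On chromosome 1, animal 4 was at 28.5% in the region 101551836 to 101552063 and at 33.2% in its neighbour 101552367 to 101552523, with the nearest others at 61.9% and 69.9%. On chromosome 9 (49467387 to 49467579) animal 6 was at 73.0% and the nearest other at 84.9%. On chromosome 16 (4972464 to 4972831) animal 9 was at 12.9% and the nearest other at 3.96%.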

How the results depend on the processing

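The number of wide-range regions, 324, depended on the settings. It was 83 with at least 10 positions, 939 by the median of the positions' levels, 112 with a coverage minimum of 50, 127 without animals 3, 6, 7 and 8 of cohort 14, 1412 at a range over 40 points and 74 at a range over 60. It was 120 at a mean depth of at least 100 reads per position, an alternative chosen after seeing the data, as was leaving out the chromosome 20 run, which gave 311. Leaving out 1 animal gave 242 to 307. Fewer regions or animals enter under these limits, and otherwise the cause was not tested.

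The share of levels near a step, 58.1%, was 61.2% with at least 10 positions, 61.4% with a coverage minimum of 50, 55.4% at a range over 60, 35.1% and 79.1% with windows of 10 and 20 points, and 63.0% at a depth of at least 100 reads. It was 56.7% to 58.9% without 1 animal. The median share of CpGs moving together, 60%, was 78.7% with at least 10 positions, 87.5% with a coverage minimum of 50, 66.7% without the 4 animals, 90.9% at an r over 0.5, 25% at an r over 0.9 and 63.6% at a depth of at least 100 reads. It was again 60% without any 1 animal. The median density was 6.25, 4.83 and 7.53 CpGs per 100 bp when joining at 100 bp, joining at 500 bp and requiring 10 positions.

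For intake, 0 regions passed in any of the 19 alternatives. At an unadjusted p under 0.05, leaving out 1 animal gave 15 to 30. The 30 came from leaving out animal 9 of cohort 14, which also raised the share over all regions, to 5.36% from 2.92%. For cohort, 0 to 1 passed without 1 animal. Without animal 1 of cohort 10 it was the chromosome 16 region from 4972464 (adjusted p 0.0178 in the quasi-binomial fit with limma), and without animal 2 the chromosome 13 region from 97174588 (adjusted p 0.000322), where the lone cohort 10 animal is assumed to vary like the others. At an unadjusted p under 0.05 there were 8 to 19, against 1.58% to 2.77% of all regions in these fits. No paired analysis was possible because animals were numbered by accession alone, which pairs none of them. Depth sets the Wilson intervals of the levels, the widest of which was 23.1 points.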
